A study of Danio rerio with 6 samples.

Results

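The genes for the mitochondrial protein import translocases were taken as the rows of the deposited expression table whose gene name begins, in lower case, with *timm* or *tomm*. Of 32520 genes, 25 rows matched, 14 named for the inner membrane (*timm*) and 11 for the outer membrane (*tomm*). Expression was given as RPKM, which scales the reads of a gene to its length and to the reads of its library. The length used and the handling of reads shared by related genes are not given in the sources used here. Levels of different genes can therefore be compared only roughly, here and below. All 25 rows passed the minimum for testing, a mean RPKM of 0.5 across the 6 libraries. The libraries were made from whole zebrafish larvae at 4 days post fertilization (dpf), as 3 wild-type (WT) pools of the AB strain and 3 maggot (*mgt*) pools labelled as *plod3* KO, each holding 60 larvae. The study writes these mutant samples as homozygous (*mgt*-/-). It describes its *mgt* allele as a missense change in *plod3*, likely to act as a knockout or to lose most function. The *plod3* gene encodes a lysyl hydroxylase that modifies collagen, and the *mgt* mutations came from a chemical mutagenesis screen and were kept in the AB background, so the groups share the strain. No treatment of either group is given. The labels call the pools biological replicates whereas a legend of the study calls them technical, so p-values measure the spread between these pools and no more.

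Nearly all mitochondrial proteins are encoded in the nucleus and must be imported from the cytosol. At the outer membrane, the receptors Tomm20, Tomm22 and Tomm70 hand precursors to the Tomm40 channel, which the small subunits Tomm5, Tomm6 and Tomm7 help to assemble and stabilize. Precursors with a cleavable presequence then pass through the TIM23 complex of the inner membrane, formed by Timm23, Timm17 and the receptor Timm50, and are pulled into the matrix by a motor that Timm44 anchors. Carrier proteins of the inner membrane take another route, on which small TIM chaperones escort them across the intermembrane space in rings of Timm9 with Timm10 or of Timm8 with Timm13, and the TIM22 complex inserts them. Tissues with many mitochondria, such as muscle, liver and brain, depend heavily on this import.

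By the steps of single reads in the values of very short genes, the libraries held about 38360000 to 50290000 reads, so that a gene at an RPKM of 1 was covered by 38.4 to 50.3 reads for each kilobase. The labels give 1 batch number to the WT pools and another to the *mgt* pools, so batch and genotype cannot be told apart. The RPKM of *plod3* itself was between 14.2 and 16.8 in WT and between 23.9 and 24.4 in *mgt*. It was called higher in *mgt* (log2 fold change 0.63, SE 0.096, limma Benjamini-Hochberg adjusted p = 0.0044). These values do not check the labels, since RPKM does not show the mutation. WT replicate 1 stood apart, 0.53 of the way from the other WT replicates to *mgt* on the first principal component, and results are therefore also given against it alone. Over all genes tested, the median log2 fold change was 0.29, beside 0.28 when WT replicate 1 was set against the other WT replicates. All 27 listed markers of larval tissues had an RPKM of at least 1 in every library, in the range of organs that a whole larva should hold. Of these markers 10 were lower and 11 higher in *mgt*. The summed RPKM of 3 exocrine pancreas markers was 2408 to 3580 in WT and 238 to 253 in *mgt*, that of 3 liver markers 4389 to 7499 and 2856 to 3024, and that of 3 neuronal markers 79.1 to 214 and 273 to 284. For 4 skeletal muscle markers the sums overlap, at 13369 to 23403 in WT and 14600 to 15310 in *mgt*. The sums were lower in every *mgt* library for markers of intestine and epidermis, and higher for those of erythrocytes, heart, lens and cartilage. For heart only *nppa* was called higher (log2 fold change 1.40), not *myl7* or *cmlc1*. Of the muscle markers only *tnnt3b* was called, lower at -0.80, whereas *ckma* was higher in every *mgt* pool without a call (0.41). Of the neuronal markers *elavl3* (1.94) and *elavl4* (2.11) were called higher and *snap25a* (0.54) was not. For *snap25a*, WT replicate 1 (122) lay within the range of the *mgt* pools (115 to 123). In whole larvae, fewer cells of a type and less RNA per cell cannot be told apart, and the part of tissue makeup in the values below was not tested.

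To ask how expression of the import machinery differed in *mgt* larvae, 0.5 was added to each RPKM and log2 values were compared between the genotypes with limma. Calls needed a p, adjusted by Benjamini-Hochberg across all genes tested, under 0.05 together with a log2 fold change of 0.32 or more in either direction. Of the 25 rows, 14 were called lower and 1 higher in *mgt*, where 15.6% of all 20435 genes tested were called lower and 31.8% higher. That split of all genes moved with scaling, from 3194 lower and 6494 higher as deposited to 4961 lower and 4871 higher with median-of-ratios factors, where 15 of the 25 rows were lower and 1 higher. The inner membrane genes carried most of these calls, with 11 of 14 lower and 0 higher by limma (0 also at an unadjusted p below 0.05), against 3 of 11 lower and 1 higher at the outer membrane. The *timm* rows include 6 small TIM chaperones, which act in the intermembrane space, and all 6 were called lower (median log2 fold change -0.59). Of 6 rows for the TIM23 complex and its motor, 3 were called lower and 0 higher (median -0.23). The inner count fell to 5 of 14 with libraries rescaled to the same sum, to 7 without WT replicate 2, and to 4, 5 and 4 without *mgt* replicate 1, 2 or 3, where the outer count was 2, 1, 1, 1 and 1 of 11. Calls over all 20435 genes fell in the same fits, from 3194 lower to 1907, 2278, 1787, 1679 and 1715 in that order. The median log2 fold change was -0.47 for the inner and -0.09 for the outer membrane genes, beside 0.29 for all genes. The outer median turned to 0.14 when every library was rescaled to the same sum. The outer rows include a second row named *tomm20a* (1.37), described below, whose identifier also carries the symbol *ARID4B*. It is the outer row called higher, and without it the outer median would lie between *tomm34* (-0.18) and *tomm40* (-0.09). Every *mgt* library lay below every WT library in 15 of the 25 rows and above in 2, where the shares over all genes tested were 21.6% and 41.7%. Against WT replicate 1 alone the medians were -0.36 (inner) and -0.05 (outer), beside 0.04 for all genes. Against WT replicates 2 and 3 they were -0.54 and -0.17, beside 0.39 for all genes. The difference between the membranes was not tested.

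**Figure D1:**
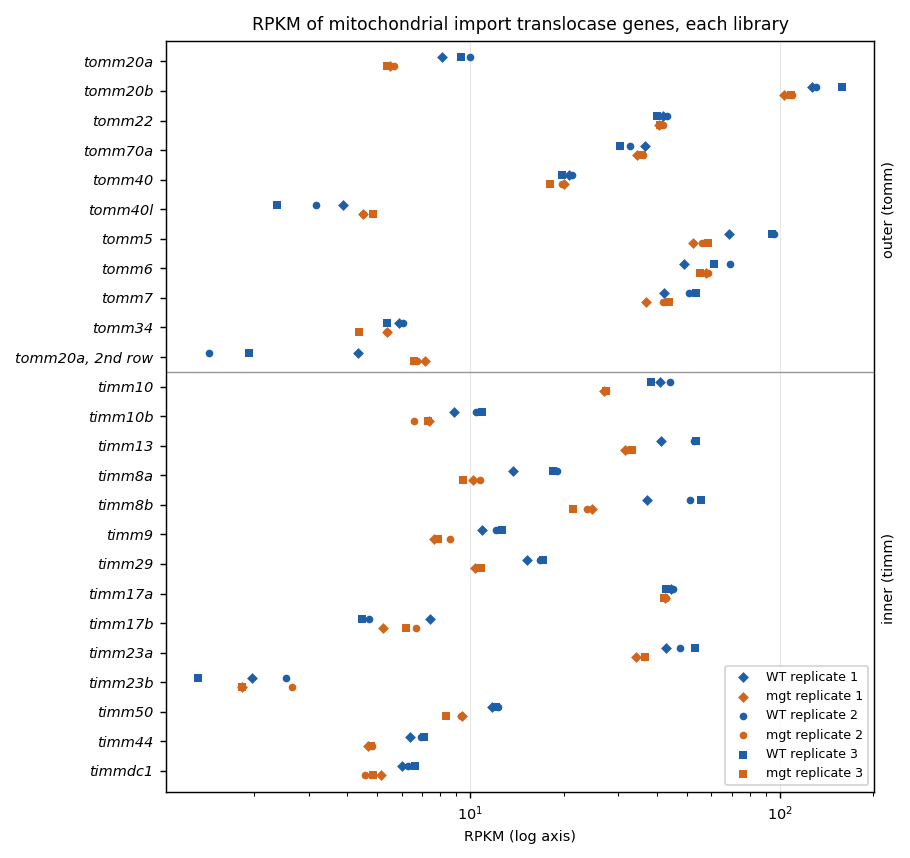
RPKM on a log axis for each of the 25 rows in each library, with WT pools in blue and *mgt* pools in orange, the replicate number given by the marker shape, and a grey line between outer and inner membrane genes. The 6 small TIM chaperones (*timm8a*, *timm8b*, *timm9*, *timm10*, *timm10b* and *timm13*) are lower in every *mgt* pool than in every WT pool, whereas the pools overlap for *tomm22*, *tomm40* and *tomm70a*.

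All 6 small TIM chaperones fell in *mgt*, with log2 fold changes from -1.0 to -0.48 and a median of -0.59. Their summed RPKM was 153, 190 and 189 in WT replicates 1, 2 and 3 and 108, 109 and 107 in *mgt* replicates 1, 2 and 3, so the *mgt* sum was 0.61 times that of WT. The gene with the lowest fold change was *timm8b* (ENSDARG00000055708, GRCz11 chromosome 5, 30089715 to 30090506), whose product pairs with Timm13. Its RPKM was 37.1, 51.3 and 55.4 in the WT pools and 24.7, 23.8 and 21.5 in the *mgt* pools. No *mgt* pool reached the lowest WT pool, which was replicate 1. The means were 47.9 ± 9.63 (SD, n = 3 pools) and 23.4 ± 1.67 (SD, n = 3), and the difference on the log2 scale was -1.0 (standard error, SE, 0.16, limma Benjamini-Hochberg adjusted p = 0.0054). Its relative *timm8a* (chromosome 14, 38878482 to 38881818), the ortholog of the human gene behind an X-linked syndrome of deafness and dystonia, had an RPKM of 13.8, 19.1 and 18.5 in WT and 10.2, 10.8 and 9.43 in *mgt*. Here too WT replicate 1 was nearest to *mgt*, and the log2 fold change was -0.72 (SE 0.15, limma Benjamini-Hochberg adjusted p = 0.011).

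The partners of these chaperones were lower as well. The RPKM of *timm13* (chromosome 22, 10771115 to 10774735) was 41.4, 52.9 and 53.4 in WT and 31.5, 32.1 and 33.2 in *mgt*, a log2 fold change of -0.59 (SE 0.12, limma Benjamini-Hochberg adjusted p = 0.011). For *timm10* (chromosome 1, 44390470 to 44394499), which forms a ring with Timm9, the values were 40.9, 44.2 and 38.4 in WT against 27.1, 27.4 and 27.4 in *mgt*. WT replicate 1 lay between the other WT pools for this gene, and the *mgt* pools were almost equal. The log2 fold change was -0.58 (SE 0.089, limma Benjamini-Hochberg adjusted p = 0.0045), the same against WT replicate 1 alone (-0.58) as against WT replicates 2 and 3 (-0.59). The RPKM of *timm9* itself (chromosome 17, 11372531 to 11377195) was lower than that of its partner in every pool, at 10.9, 12.1 and 12.7 in WT and 7.62, 8.56 and 7.86 in *mgt* (log2 fold change -0.54, SE 0.11, limma Benjamini-Hochberg adjusted p = 0.01). The ratio of *timm9* to *timm10* was 0.29 ± 0.035 in WT and 0.29 ± 0.017 in *mgt* (SD, n = 3 each), with overlapping pools. By contrast the ratio of *timm8b* to *timm13* was 0.90 to 1.04 in the WT pools and 0.65 to 0.79 in the *mgt* pools, which do not overlap. The ratio of *timm8a* to *timm13* was 0.33 to 0.36 in WT and 0.28 to 0.34 in *mgt*, with overlapping pools. These ratios are taken within a library and so do not depend on scaling between libraries. They were chosen after the values had been seen and carry no test. The sixth chaperone, *timm10b* (chromosome 10, 24762216 to 24765988), whose human counterpart sits on the TIM22 complex, had an RPKM of 8.86, 10.4 and 10.9 in WT and 7.34, 6.58 and 7.27 in *mgt* (log2 fold change -0.48, SE 0.12, limma Benjamini-Hochberg adjusted p = 0.020).

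**Figure D2:**
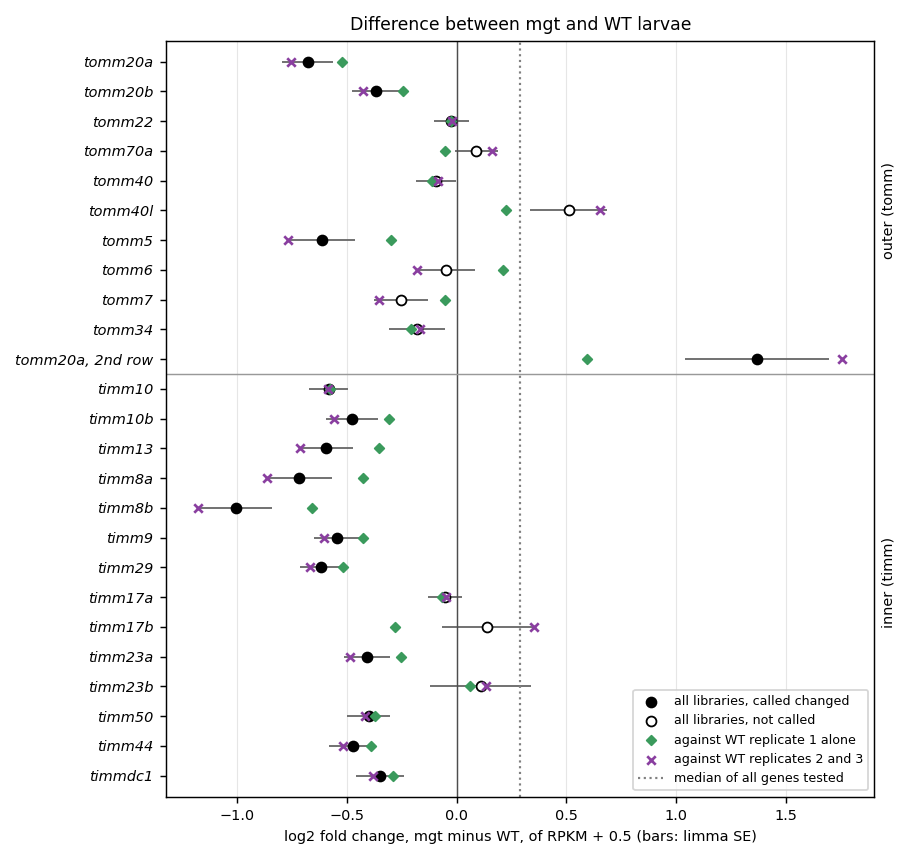
Log2 fold change of *mgt* against WT for each row, with limma standard errors as bars and filled circles for rows called changed. Diamonds give *mgt* against WT replicate 1 alone, crosses *mgt* against WT replicates 2 and 3, and the dotted line the median of all genes tested (0.29). All 6 small TIM chaperones and *timm29* lie left of 0 by each measure, whereas *timm17b*, *tomm6* and *tomm70a* change side with the WT pools used.

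With each library left out in turn, *timm8b*, *timm10*, *timm29* and *tomm20a* kept their call in all 6 fits, and these 4 were also the genes called lower in all 18 fits run. The remaining 10 kept their negative sign in every fit but not their call. Leaving out WT replicate 1 kept all 14 calls and added *tomm7*. Without WT replicate 2 there were 8 calls, without WT replicate 3 there were 9, and without *mgt* replicate 1, 2 or 3 there were 5, 6 and 5. Among the small TIM chaperones the highest limma Benjamini-Hochberg adjusted p with a library left out was 0.051 for *timm13*, 0.053 for *timm9*, 0.054 for *timm8a* and 0.089 for *timm10b*. Rescaling each library to the same sum left 7 of the 14, namely *timm8a*, *timm8b*, *timm10*, *timm13*, *timm29*, *tomm20a* and *tomm5*.

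Among genes for the TIM22 complex, which inserts carrier proteins, *timm29* and *TIMM22* were called lower and *agk* was not. The *agk* pools overlap (log2 fold change -0.08, SE 0.15, limma Benjamini-Hochberg adjusted p = 0.66). The human counterpart of *timm29* (ENSDARG00000037909, GRCz11 chromosome 3, 34180835 to 34182587) is a subunit of this complex. Its RPKM was 15.3, 16.8 and 17.1 in WT and 10.3, 10.4 and 10.8 in *mgt*. The *mgt* pools were tightly grouped under all WT pools, with means of 16.4 ± 1.00 (SD, n = 3) and 10.5 ± 0.26 (SD, n = 3) and a log2 fold change of -0.62 (SE 0.095, limma Benjamini-Hochberg adjusted p = 0.0046). The gene of the channel subunit itself is written *TIMM22* in capitals in the table and so lay outside the 25 rows. It had an RPKM of 8.88, 11.1 and 10.9 in WT and 7.17, 7.26 and 6.71 in *mgt* (log2 fold change -0.51, SE 0.12, limma Benjamini-Hochberg adjusted p = 0.018), and lost its call with libraries rescaled to the same sum (-0.29, adjusted p = 0.077), whereas *timm29* kept it.

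The TIM23 genes divided. Its receptor gene *timm50* (chromosome 15, 20475694 to 20528494) had an RPKM of 11.8, 12.3 and 12.1 in WT and 9.36, 9.31 and 8.34 in *mgt*, and WT replicate 1 was close to the other WT pools. The log2 fold change was -0.40 (SE 0.098, limma Benjamini-Hochberg adjusted p = 0.019). For *timm44*, the anchor of the import motor (chromosome 22, 4447387 to 4466724), the values were 6.38, 6.93 and 7.09 in WT and 4.66, 4.82 and 4.78 in *mgt*, a log2 fold change of -0.47 (SE 0.11, limma Benjamini-Hochberg adjusted p = 0.014). The more abundant channel gene *timm23a* (chromosome 12, 35046704 to 35051441) had an RPKM of 42.7, 47.6 and 53.0 in WT and 34.3, 36.4 and 36.5 in *mgt*, a log2 fold change of -0.41 (SE 0.10, limma Benjamini-Hochberg adjusted p = 0.022). All 3 calls were lost when libraries were rescaled to the same sum (log2 fold changes of -0.18 for *timm50*, -0.26 for *timm44* and -0.18 for *timm23a*). The call of *timm23a* was also lost when any single library except WT replicate 1 was left out. That of *timm50* was lost without WT replicate 2 or any single *mgt* replicate, and that of *timm44* without any single *mgt* replicate. A further TIM23 gene, *TIMM21*, is also written in capitals in the table and had a mean RPKM of 7.0 ± 0.46 in WT and 4.96 ± 0.46 in *mgt* (SD, n = 3 each, log2 fold change -0.46, limma Benjamini-Hochberg adjusted p = 0.023). The *TIMM21* call was also lost with libraries rescaled to the same sum (-0.24, limma Benjamini-Hochberg adjusted p = 0.20).

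The other TIM23 genes were not called. The level of *timm17a* (chromosome 11, 24900123 to 24906264), a partner of Timm23 in the channel, was 44.5, 45.1 and 42.8 in WT and 42.6, 42.8 and 42.2 in *mgt*. Every *mgt* pool was below every WT pool, yet the gap was small, with a log2 fold change of -0.05 (SE 0.077, limma Benjamini-Hochberg adjusted p = 0.57) that turned to 0.18 with libraries rescaled to the same sum. Its relative *timm17b* (chromosome 8, 44921123 to 44926077) had 7.40, 4.71 and 4.48 in WT and 5.21, 6.67 and 6.21 in *mgt*. WT replicate 1 was the highest of all 6 pools, and the log2 fold change was 0.14 (limma Benjamini-Hochberg adjusted p = 0.58) with all pools and 0.35 (adjusted p = 0.021, called higher by limma with Benjamini-Hochberg adjustment) without WT replicate 1. For *timm23b* (chromosome 13, 3880882 to 3926179), the lowest of the 25 rows in WT, the RPKM was 1.97, 2.54 and 1.32 in WT and 1.83, 2.66 and 1.83 in *mgt*, and the groups overlap. The last inner membrane row, *timmdc1* (chromosome 1, 28832671 to 28861226), encodes an assembly factor of respiratory complex I in human cells rather than a translocase. It had an RPKM of 6.03, 6.27 and 6.64 in WT and 5.14, 4.58 and 4.84 in *mgt*, a log2 fold change of -0.35 (SE 0.11, limma Benjamini-Hochberg adjusted p = 0.039), and this call was lost without any one library except WT replicate 1.

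At the outer membrane, the channel and the central receptor showed no call. For the *tomm40* channel gene (ENSDARG00000092112, GRCz11 chromosome 16, 25673107 to 25680748) the RPKM was 20.9, 21.2 and 19.7 in WT and 20.1, 19.7 and 18.1 in *mgt*, so the pools overlap (log2 fold change -0.09, SE 0.091, limma Benjamini-Hochberg adjusted p = 0.41). For *tomm22* (chromosome 12, 19348538 to 19353771) the values were 41.8, 43.2 and 40.2 in WT and 40.5, 41.8 and 40.8 in *mgt*, a log2 fold change of -0.02 (SE 0.079, limma Benjamini-Hochberg adjusted p = 0.82). The carrier receptor *tomm70a* (chromosome 6, 28946041 to 28961660) had 36.8, 32.9 and 30.4 in WT and 34.5, 36.0 and 35.8 in *mgt*. WT replicate 1 was above all *mgt* pools here, and the log2 fold change was 0.09 (SE 0.099, limma Benjamini-Hochberg adjusted p = 0.46). The direction of these 3 genes depended on the scaling. In the order given, the log2 fold changes were 0.14, 0.21 and 0.32 with libraries rescaled to the same sum and -0.39, -0.32 and -0.21 with median-of-ratios factors.

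Both genes for the presequence receptor Tomm20 fell. The *tomm20b* gene (ENSDARG00000103566, chromosome 11, 44637516 to 44647315) was the most abundant of the 25 rows, with an RPKM of 127, 130 and 159 in WT and 103, 109 and 108 in *mgt*. Its pools do not overlap, and the log2 fold change was -0.37 (SE 0.11, limma Benjamini-Hochberg adjusted p = 0.035). This call was lost with libraries rescaled to the same sum (log2 fold change -0.13) and when any one library except WT replicate 1 was left out. The ratio of *tomm20b* to *tomm22*, the receptor beside it, was 3.34 ± 0.53 in WT and 2.60 ± 0.056 in *mgt* (SD, n = 3 each), also without overlap. For *tomm20a* (ENSDARG00000103163, chromosome 13, 49541003 to 49586255) the RPKM was 8.10, 9.96 and 9.30 in WT and 5.48, 5.65 and 5.36 in *mgt*. All *mgt* pools lay well under the lowest WT pool, with means of 9.12 ± 0.94 (SD, n = 3) and 5.50 ± 0.15 (SD, n = 3) and a log2 fold change of -0.68 (SE 0.12, limma Benjamini-Hochberg adjusted p = 0.0064).

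A second row of the table is also named *tomm20a* (ENSDARG00000090656) and covers another stretch of chromosome 13, from 49597258 to 49707885. The gene name table supplied with the files gives this identifier the symbol *ARID4B*, the name of a chromatin regulator, and RefSeq lists *arid4b* among the synonyms of *tomm20a*. The row behaved unlike the first. Its RPKM was 4.34, 1.43 and 1.92 in WT and 7.15, 6.72 and 6.55 in *mgt*, a log2 fold change of 1.37 (SE 0.33, limma Benjamini-Hochberg adjusted p = 0.018). WT replicate 1 was far above the other WT pools, and *mgt* was higher by 0.59 against it alone and by 1.76 against WT replicates 2 and 3. Removal of the trend with gene span lowered the log2 fold change to 0.63, and the call was lost without WT replicate 3 or any one *mgt* replicate (limma Benjamini-Hochberg adjusted p from 0.062 to 0.068). It was the only row of the 25 called higher. Without it, 24 rows remain, of which 14 were called lower and 0 higher (1 at an unadjusted limma p below 0.05, *tomm40l*). A rise under the name *tomm20a* thus rests only on the identifier that also carries the symbol *ARID4B*. The other row named *tomm20a* was called lower (-0.68).

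Among the small subunits of the outer membrane complex, *tomm5* fell. Its RPKM (chromosome 14, 44774089 to 44777491) was 68.3, 95.6 and 94.3 in WT and 52.2, 56.0 and 58.5 in *mgt*, and WT replicate 1 lay between the other WT pools and *mgt*. The log2 fold change was -0.61 (SE 0.15, limma Benjamini-Hochberg adjusted p = 0.018), -0.30 against WT replicate 1 and -0.77 against WT replicates 2 and 3. This call was lost when any single library except WT replicate 1 was left out (limma Benjamini-Hochberg adjusted p from 0.058 to 0.073). For *tomm6* (chromosome 6, 40572545 to 40573270) the values were 49.1, 68.7 and 61.0 in WT and 57.6, 58.6 and 55.0 in *mgt*, where all *mgt* pools exceeded WT replicate 1 (log2 fold change -0.05, SE 0.13, limma Benjamini-Hochberg adjusted p = 0.77). The RPKM of *tomm7* (chromosome 19, 2685779 to 2695427) was 42.3, 50.9 and 53.4 in WT and 37.1, 41.8 and 43.7 in *mgt*, a log2 fold change of -0.25 (SE 0.12, limma Benjamini-Hochberg adjusted p = 0.12). It was called lower without WT replicate 1 (log2 fold change -0.35, limma Benjamini-Hochberg adjusted p = 0.0062). Relative to the *tomm40* channel, *tomm5* went from 3.28, 4.50 and 4.78 in WT to 2.60, 2.84 and 3.22 in *mgt*, whereas the pools overlap for *tomm6* (2.90 ± 0.47 and 2.96 ± 0.080, SD, n = 3 each) and *tomm7* (2.38 ± 0.34 and 2.12 ± 0.28, SD, n = 3 each).

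The remaining outer membrane rows were not called. The *tomm40l* gene (chromosome 19, 10831362 to 10845087), a second channel gene expressed far below *tomm40*, had an RPKM of 3.87, 3.17 and 2.37 in WT and 4.49, 4.49 and 4.85 in *mgt*. Every *mgt* pool was above every WT pool, and the log2 fold change of 0.51 (SE 0.18) just missed the threshold (limma Benjamini-Hochberg adjusted p = 0.051). It passed without WT replicate 1 (0.65, limma Benjamini-Hochberg adjusted p = 0.0017) and with libraries rescaled to the same sum (0.72, limma Benjamini-Hochberg adjusted p = 0.030). The log2 fold change shrank to 0.25 with median-of-ratios factors and to 0.11 with quantile normalization (limma Benjamini-Hochberg adjusted p = 0.13 and 0.48), and without any other single library the adjusted p from limma was 0.10 to 0.15. The *tomm34* gene (chromosome 6, 52226682 to 52235118) encodes a cytosolic cochaperone that binds precursors before import in human cells, and its RPKM was 5.87, 6.05 and 5.38 in WT and 5.39, 5.38 and 4.37 in *mgt*, with overlapping pools (log2 fold change -0.18, limma Benjamini-Hochberg adjusted p = 0.27). It was called lower with median-of-ratios factors (-0.46, limma Benjamini-Hochberg adjusted p = 0.038) and with quantile normalization (-0.54, adjusted p = 0.024), and was at 0.034 with libraries rescaled to the same sum.

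Related translocase genes were compared in 6 pairs as log2 ratios within a library, which scaling between libraries barely touches. The pair *timm10* and *timm10b* encodes separate subunits, as described above, rather than copies of the same subunit. With 3 pools against 3, an exact two-sided permutation test cannot give a p below 0.10. The pools of the genotypes did not overlap for 3 pairs, each at this smallest p (exact permutation p = 0.10, 0.20 after Benjamini-Hochberg adjustment over the 6 pairs). Lack of overlap was common among single genes, with 21.6% of all genes tested below and 41.7% above in every *mgt* library. No such share was computed over ratios of other gene pairs, either here or for the ratios within a library given above. The log2 ratio of *timm8a* to *timm8b* averaged -1.45 ± 0.088 in WT and -1.17 ± 0.066 in *mgt* (SD, n = 3 each). That of *tomm20a* to *tomm20b* was -3.85 ± 0.19 (SD, n = 3) and -4.16 ± 0.051 (SD, n = 3), and that of *tomm40* to *tomm40l* was 2.56 ± 0.26 (SD, n = 3) and 1.95 ± 0.13 (SD, n = 3). For *timm10* to *timm10b*, *timm17a* to *timm17b* and *timm23a* to *timm23b* the pools overlap, with exact permutation p of 0.50, 0.40 and 0.20. With this smallest p, no ratio could have passed 0.05 before or after the correction.

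**Figure D3:**
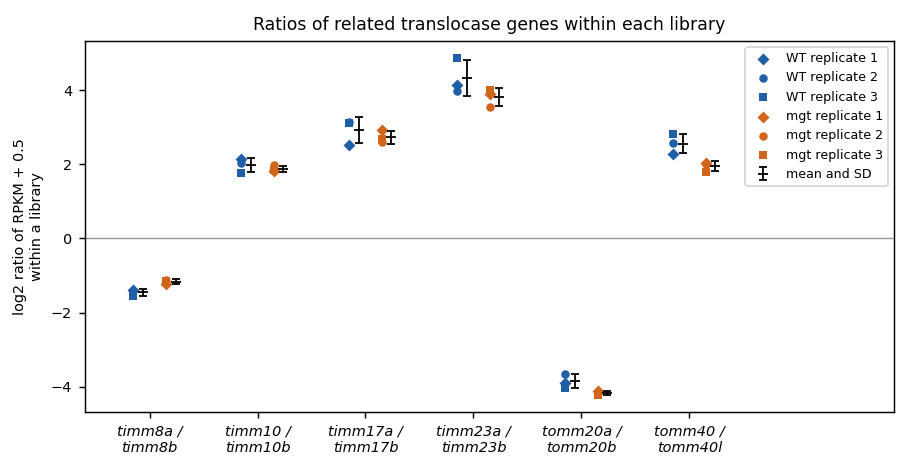
Log2 ratio of RPKM + 0.5 between related genes within each library, with WT pools in blue, *mgt* pools in orange and the mean and SD of each group in black. The pools separate for *timm8a* to *timm8b* (higher in *mgt*), *tomm20a* to *tomm20b* and *tomm40* to *tomm40l* (both lower in *mgt*), and overlap for the other 3 pairs.

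Other genes of the import pathway were mixed. Of 27 listed genes for the import motor, matrix chaperones, peptidases, the sorting and assembly complex and the oxidation pathway of the intermembrane space, 7 were called lower and 2 higher, with a median log2 fold change of -0.22. These are 25.9% lower and 7.41% higher, beside 15.6% and 31.8% of all genes tested. The *hspe1* gene, for the small matrix chaperonin, had a mean RPKM in WT of 59.5 ± 9.83 (SD, n = 3), in *mgt* of 34.8 ± 0.61 (SD, n = 3). This was a log2 fold change of -0.75 (SE 0.13, limma Benjamini-Hochberg adjusted p = 0.0073). Its partner *hspd1* had means of 83.9 ± 7.52 (SD, n = 3) and 58.9 ± 1.56 (SD, n = 3), for a log2 fold change of -0.50 (SE 0.095, limma Benjamini-Hochberg adjusted p = 0.0084). Both genes of the oxidoreductase that traps small TIM chaperones in the intermembrane space were called lower, *chchd4a* at -0.54 and *chchd4b* at -0.51 (limma Benjamini-Hochberg adjusted p = 0.012 and 0.019). In contrast *gfer*, whose product reoxidizes that oxidoreductase, went from 4.49 ± 0.27 (SD, n = 3) in WT to 7.31 ± 0.75 (SD, n = 3) in *mgt*, for a log2 fold change of 0.64 (SE 0.12, limma Benjamini-Hochberg adjusted p = 0.0087). The outer membrane metaxin gene *mtx1a* was called higher at 0.61 (SE 0.18, limma Benjamini-Hochberg adjusted p = 0.032). The motor gene *hspa9*, for the matrix Hsp70, was not called (log2 fold change 0.13, limma Benjamini-Hochberg adjusted p = 0.24). These counts moved widely with scaling, from 1 lower (*hspe1*) and 5 higher with libraries rescaled to the same sum to 16 lower and 0 higher with quantile normalization.

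The translocases were set beside other nuclear genes of the mitochondrion, with no test of the differences between families. Of 74 genes of the mitochondrial ribosome, 79.7% were called lower at a median log2 fold change of -0.54, and of 45 complex I genes tested 84.4% at -0.71, against 78.6% at -0.47 for the 14 inner and 27.3% at -0.09 for the 11 outer membrane rows and 15.6% for all genes tested. As deposited, 1 complex I gene and 0 mitochondrial ribosome genes were called higher. As given above, the inner count fell to 4 or 5 of 14 under same-sum rescaling or with 1 *mgt* library left out. Such counts were not made for the mitochondrial ribosome or complex I. With libraries rescaled to the same sum, the medians were -0.26 (inner), 0.14 (outer), -0.32 (mitochondrial ribosome) and -0.47 (complex I), beside 0.49 for all genes. The 11 outer rows include the second row named *tomm20a*, which raises their median. As deposited, the small TIM chaperones alone were at -0.59 and the rows for the TIM23 complex and its motor at -0.23. These families differ in gene span. The median span was 4702 bases for the inner and 9649 bases for the outer membrane rows, against 16386 bases for all genes tested. With a trend of each library with span removed, the medians were -0.62 for the inner and -0.23 for the outer membrane rows and 0.01 for all genes. They were -0.66 for the mitochondrial ribosome and -0.77 for complex I, whose median spans were 6368 and 6230 bases. This removal brings all genes near 0 by construction, and an effect of span was not tested.

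**Figure D4:**
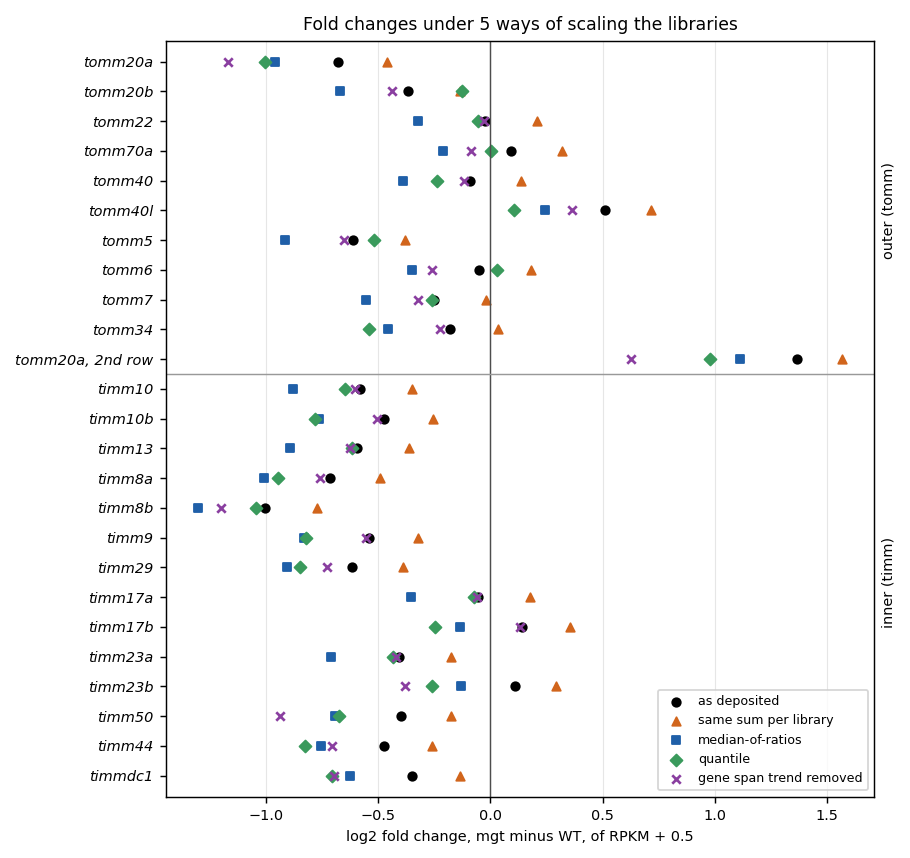
Log2 fold change of each row under 5 ways of scaling the libraries, namely as deposited, rescaled to the same sum, median-of-ratios factors, quantile normalization and removal of a trend with gene span. The 6 small TIM chaperones, *timm23a*, *timm29*, *timm44*, *timm50*, *timmdc1*, *tomm20a*, *tomm20b*, *tomm5* and *tomm7* stay left of 0 in all 5. The second row named *tomm20a* and *tomm40l* stay right of 0, whereas *tomm22*, *tomm34*, *tomm40*, *tomm6*, *tomm70a*, *timm17a*, *timm17b* and *timm23b* lie on both sides.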

How the data were processed

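RNA-seq of 3 WT and 3 *mgt* pools of whole larvae was analysed. Per the labels and the methods, the authors ran FastQC, cutadapt 5.2, STAR against GRCz11 and HTSeq, and deposited RPKM rounded to 2 decimals. The gene length behind RPKM and the handling of reads shared by related genes are not given in the sources used here. The authors name DESeq2, which needs counts, so limma was used here on RPKM. The mean, SD and ratio columns that the authors deposited gave no result here. In all 32520 genes their WT mean is the mean of WT replicates 2 and 3 alone. The table is labelled as free of outliers, and how outliers were found is not given in the sources used here.

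Log2(RPKM + 0.5) was taken for the 20435 genes reaching a mean RPKM of 0.5 and fitted with limma 3.58.1 in R 4.3.3 (eBayes with trend, two-sided, Benjamini-Hochberg adjustment over all genes). Fold changes on this scale understate those of low genes. On simulated data with 200 genes changed by 1 on the log2 scale among 20435 genes, 50.5% were called, none with the wrong sign, and 4.72% of calls were unchanged genes. In the real fit 3194 genes were called lower and 6494 higher, so these shares do not describe the calls above. Read steps were taken in genes spanning at most 160 bases, where at least 99.7% of values fell within the rounding of the file plus 0.05 of a read from a whole number of reads. Plots used matplotlib 3.10.9. The members and lists were chosen with earlier results of these data known. Every matching row is named, and other import genes were named by the size of their fold change among called genes. The genes *hspa9* and *agk* were added after their values were seen.

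Alternatives were pseudocounts of 0.1 and 1, other filters, 4 other scalings, other eBayes settings, no fold threshold, a replicate block and leaving out each library. Sequences of the members were not analysed here.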

Additional observations from a re-analysis of the deposited data

How the results depend on the processing

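Main counts were 14 members lower and 1 higher, 7 other import genes lower and 2 higher, and 3194 of all genes lower and 6494 higher. With libraries rescaled to the same sum these were, in the same order, 7, 2, 1, 5, 1907 and 8816, and the median of all genes was 0.49. With median-of-ratios factors they were 15, 1, 14, 0, 4961 and 4871 (median 0.03), with quantile normalization 14, 1, 16, 0, 5338 and 4672, and with the gene span trend removed 13, 1, 14, 1, 4808 and 4174. Members called higher were 2 with a pseudocount of 1, with a minimum mean RPKM of 1 and with eBayes without trend, since *tomm40l* passed. With each library left out in turn, members lower ranged from 5 to 15 and higher from 0 to 3, other import genes from 2 to 9 and from 0 to 3, and all genes from 1679 to 3716 and from 2395 to 10634.

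Genes not called in the main comparison changed sign as follows. Rescaling to the same sum gave 0.21 for *tomm22*, 0.14 for *tomm40*, 0.034 for *tomm34*, 0.18 for *tomm6* and 0.18 for *timm17a*. Median-of-ratios factors gave -0.21 for *tomm70a*, -0.14 for *timm17b* and -0.13 for *timm23b*. Quantile normalization gave 0.030 for *tomm6*, -0.25 for *timm17b* and -0.26 for *timm23b*. Removal of the span trend gave -0.088 for *tomm70a* and -0.38 for *timm23b*. With a library left out, *tomm22* ranged from -0.049 to 0.0020, *tomm6* from -0.18 to 0.059 and *timm23b* from -0.087 to 0.28. The ratio to *tomm20b* rose by 1.74 in place of falling when the second row named *tomm20a* was read, an alternative chosen after seeing the data. The cause of these changes was not tested.

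With the replicate number as a block, 10 members were lower and 1 higher, with *timm10b*, *timm50*, *timmdc1* and *tomm20b* losing their call, and other import genes were 5 lower and 1 higher. Same-numbered pools did not deviate together (r = -0.03, 0.03 and 0.03 across genes), and WT replicate 1 did not correlate best with its own number. With 3 pools in each group and WT replicate 1 standing apart, these values cannot decide whether the numbers pair the pools. The widest standard errors among the members were 0.33 for the second row named *tomm20a*, 0.23 for *timm23b*, 0.21 for *timm17b* and 0.18 for *tomm40l*. These were also the members lowest in WT.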
